A study of Mus musculus with 20 samples.

Results

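*Sox7*, *Sox17*, *Sox18*, *Erg*, *Fli1*, *Etv2*, *Tal1*, *Lyl1* and *Gata2* encode transcription factors that act in endothelial and blood cells. These 9 genes were taken by symbol from the 43280 gene symbols of the RNA-seq count files, and the regions of open chromatin at their start sites were taken from 4 ATAC-seq peak lists. The study deleted *Eed* in the mesenchyme of the mouse gut and asked how this changed the genes that the mesenchyme of each organ uses. Embryonic RNA came from GFP+ cells sorted at E13.5, from intestine and from stomach, with 2 libraries in each of 4 groups. Control embryos were Bapx1-cre;Rosa26mTmG and *Eed* KO embryos were Eedfl/fl;Bapx1-cre;Rosa26mTmG, so every sorted cell of both genotypes carried the Bapx1 Cre driver and the membrane GFP that Cre switches on. Adult RNA came from the small intestine of mice with the tamoxifen-induced *Pdgfrb* Cre-ERT2 driver and the same GFP reporter, with *Eed* floxed in the KO mice only, again as 2 libraries a genotype. Villi were scraped off before the adult cells were freed and GFP+ cells were sorted. The labels give C57BL/6 for all embryos, whereas the study's description of its animals gives mixed backgrounds that differ between the mouse lines, so background and genotype cannot be told apart. The sources used here do not say which libraries pool several animals, so a p-value measures only the spread between these libraries. *Xist*, expressed in females, and the Y-linked *Ddx3y* were both present in each embryonic control library (36.3 to 123 and 30.8 to 79.5 CPM). In both KO organs library 1 held *Ddx3y* (122 and 137 CPM) with *Xist* below 0.1 CPM, and library 2 held *Xist* (54.5 and 52.4 CPM) with *Ddx3y* below 0.1 CPM. Control libraries thus held cells of both sexes, and so of more than a single embryo. Each KO library held mainly cells of a single sex, so whether it pools embryos cannot be told. Replicates of the 2 genotypes may therefore be unlike units with unlike spread. The part of sex in the changes below was not tested.

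EED is a core subunit of the Polycomb repressive complex that methylates histone H3 and keeps developmental regulators silent outside their own lineage. The proteins studied here are such regulators. The SoxF proteins (SOX7, SOX17, SOX18) specify arterial and lymphatic endothelium, the ETS proteins ERG, FLI1 and ETV2 bind most endothelial enhancers, and TAL1 or LYL1 join GATA2, LMO2 and LDB1 in a complex that directs blood stem cells and their endothelial precursors. Gut mesenchyme, which gives rise to fibroblasts and smooth muscle, is not a tissue in which these factors are known as lineage regulators.

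The targeted gene followed the labels in the embryo. *Eed* stood at 38.1 and 40.1 CPM (counts scaled between libraries to a total of 1000000) in control intestine and at 10.7 and 8.58 in KO intestine, and at 40 and 41.5 CPM in control stomach and 11.5 and 7.4 in KO stomach. In the adult it stood at 29.7 and 33.4 CPM in the control libraries and 25.6 and 25 in the KO libraries, a difference that did not pass the test (edgeR adjusted p = 0.32). Which exons the deletion removes was not checked against the counted exons, so the adult values are no check of the labels. Embryonic libraries held 30236159 to 39606157 gene counts and adult ones 11404712 to 15903642. Summed over 12 mesenchymal genes the embryonic libraries reached 14200 to 25700 CPM, against 67.1 to 165 CPM for 20 endothelial surface and junction genes. The defining leukocyte gene *Ptprc* was at 0 counts in 6 of the 8 embryonic libraries and at 1 count in the others. Other genes of the macrophage and leukocyte list were present, and its 15 genes summed to 6.58 to 14.7 CPM in these libraries.

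Promoter sequences of the members whose start sites the peak data or the largest changes bear on are shown first. RefSeq (GRCm38.p6) gave an upstream sequence for 5 of the 9 members, *Erg*, *Etv2*, *Tal1*, *Lyl1* and *Gata2*; *Sox7*, *Sox17*, *Sox18* and *Fli1* had no entry. The lines below hold the 250 bases before the first start site, 5′ to 3′ on the gene's own strand, of *Tal1* (largest fitted change in KO stomach), *Lyl1* (a peak within 1000 bp of its start in KO lists only), *Gata2* (raised in KO libraries of both organs) and *Erg* (strongest promoter peak). Capitals mark matches, on either strand, to the core letters bound by these families: GATAA or TTATC for GATA proteins, GGAAG or CTTCC for ETS proteins, CANNTG for the bHLH proteins, and AACAAT or ATTGTT for Sox proteins.
Tal1, chr4:115056176-115056425, plus strand: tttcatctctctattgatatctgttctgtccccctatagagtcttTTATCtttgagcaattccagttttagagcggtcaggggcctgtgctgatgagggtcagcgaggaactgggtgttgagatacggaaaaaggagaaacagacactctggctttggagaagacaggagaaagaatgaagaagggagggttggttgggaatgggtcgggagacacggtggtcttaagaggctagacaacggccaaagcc
Lyl1, chr8:84701207-84701456, plus strand: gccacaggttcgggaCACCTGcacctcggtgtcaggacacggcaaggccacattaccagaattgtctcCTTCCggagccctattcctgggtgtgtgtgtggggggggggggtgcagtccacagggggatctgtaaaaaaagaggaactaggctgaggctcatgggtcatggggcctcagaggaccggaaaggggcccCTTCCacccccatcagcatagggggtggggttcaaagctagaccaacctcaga
Gata2, chr6:88193641-88193890, plus strand: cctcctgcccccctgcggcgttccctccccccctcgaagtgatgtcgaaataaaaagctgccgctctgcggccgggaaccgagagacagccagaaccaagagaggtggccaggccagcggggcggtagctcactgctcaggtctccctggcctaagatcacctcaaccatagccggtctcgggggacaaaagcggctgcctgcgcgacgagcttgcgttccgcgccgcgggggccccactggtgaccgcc
Erg, chr16:95586594-95586843, minus strand: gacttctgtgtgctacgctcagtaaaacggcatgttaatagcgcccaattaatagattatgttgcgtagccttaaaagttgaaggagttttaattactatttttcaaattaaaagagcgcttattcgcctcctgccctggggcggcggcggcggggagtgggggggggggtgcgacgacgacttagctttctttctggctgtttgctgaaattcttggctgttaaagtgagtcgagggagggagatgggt
*Tal1* held 1 GATA match, *Lyl1* held 1 bHLH and 2 ETS matches, *Etv2*, not printed, held 2 ETS matches, and the first *Gata2* and *Erg* promoters held no match to any of the 4 patterns. Of 32851 promoter windows of this length in the table, 22.6% held the GATA letters, 64.1% the ETS letters, 66.2% the bHLH letters and 9.42% the Sox letters. A match describes the sequence and is no evidence of binding.

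The SoxF genes were higher in *Eed* KO mesenchyme of both organs. *Sox18*, a regulator of lymphatic and blood vessel formation, stood at 0.393 and 0.404 CPM in control intestine and at 3.24 and 3.79 in KO intestine, and at 0.348 and 0.408 CPM in control stomach and 3.33 and 2.74 in KO stomach. No KO library came near a control library in either organ. *Sox18* rose 8.77-fold in intestine (log2 fold change 3.13 ± 0.27 SE, edgeR adjusted p = 0.0025) and 7.94-fold in stomach (2.99 ± 0.27, adjusted p = 0.0012). In bulk RNA, more cells of a type and more RNA per cell cannot be told apart, and this holds for every change given here.

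*Sox17*, which drives arterial identity, had no count in either control intestine library and 17 and 13 counts in the KO intestine libraries (0.448 and 0.371 CPM). With the floor of 3 counts over the control group it was at least 8.95-fold higher (edgeR adjusted p = 0.037). In stomach it had 1 and 0 counts in the control libraries and 9 and 15 in the KO libraries (0.241 and 0.411 CPM), a ratio of 24 with a 95% counting interval of 3.91 to 987 (adjusted p = 0.038). *Sox7*, which acts beside *Sox17* in vessel formation, stood at 0.253 and 0.437 CPM in control intestine and at 1.64 and 1.43 in KO intestine. These groups did not overlap, but the 4.46-fold difference missed the threshold (log2 2.16 ± 0.55, adjusted p = 0.094); it passed with no filter on low counts (0.012) and in DESeq2 (0.034). In stomach *Sox7* had 0 and 3 counts in the control libraries and 15 and 28 in the KO libraries, a ratio of 14.3 (counting interval 4.59 to 72.2, edgeR adjusted p = 0.032). Both stomach calls rested on few counts, and that of *Sox17* was not made by DESeq2 (0.086). The adjusted p of *Sox17* was 0.071 to 0.2 when any 1 of the stomach libraries was left out, and that of *Sox7* was 0.13 without control library 1, 0.062 without control library 2 and 0.15 without KO library 2. The *Sox7* stomach call was also lost in DESeq2 with a spike-in factor (0.18) and in a fit of the stomach libraries alone (0.052). In intestine the *Sox17* call was lost without any 1 of the 4 libraries (adjusted p 0.093 to 0.2) and in a fit of the intestine libraries alone (0.059).

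The ETS genes differed from one another. *Erg*, which maintains endothelial identity and junctions, was at 0.393 and 0.404 CPM in control intestine and at 1.64 and 2.08 in KO intestine, while control stomach already held 2.17 and 2.93 CPM and KO stomach 3.67 and 4.69. The KO libraries lay above the controls in both organs. *Erg* rose 4.63-fold in intestine (log2 2.21 ± 0.31, edgeR adjusted p = 0.013), and its 1.63-fold difference in stomach did not pass (0.71 ± 0.25, 95% interval 0.12 to 1.29, adjusted p = 0.15). The intestine call was lost without control library 1 (adjusted p = 0.13), control library 2 (0.098) or KO library 2 (0.055). With spike-in scaling, which raises the median of all genes in KO stomach by 2.39 (log2), *Erg* was called in stomach (0.76 above that median). Under that scaling 15419 of all 16218 genes tested were called higher there, so the call does not set *Erg* apart.

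*Fli1*, an ETS factor of endothelium, megakaryocytes and mesenchyme derived from neural crest, was per length the most abundant of the 9 genes in 3 of the 4 embryonic groups. It stood at 11.8 and 18.3 CPM in control intestine and at 18.8 and 17.2 in KO intestine, so these groups overlapped (log2 0.26 ± 0.21, 95% interval -0.22 to 0.74, edgeR adjusted p = 0.72). In stomach it stood at 5.16 and 4.69 CPM in the controls and at 10.5 and 11.8 in the KO libraries, with no overlap. It rose 2.26-fold there (1.18 ± 0.21, adjusted p = 0.019), a call lost without control library 1 (0.094), control library 2 (0.13) or KO library 2 (0.099). *Etv2*, the earliest ETS factor of the endothelial and blood lineage and silent in mature vessels, had 1 and 0 counts in control intestine and 11 and 4 in KO intestine, a ratio of 13.4 (counting interval 2.07 to 565). In stomach it had 2 and 2 counts in the controls and 8 and 6 in the KO libraries, a ratio of 3.5 (1.1 to 14.6). *Etv2* failed the filter on low counts and was not tested in the main fit; without the filter its edgeR adjusted p was 0.18 and 0.42.

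*Tal1* showed the largest fitted rise in stomach. This bHLH factor is required for all blood formation. It stood at 0.225 and 0.101 CPM in control intestine (8 and 3 counts) and at 2.35 and 2.62 in KO intestine (89 and 92 counts), and at 0.116 and 0.153 CPM in control stomach (4 and 6 counts) and 4.16 and 4.22 in KO stomach (155 and 154 counts). Every KO library held at least 10 times the CPM of every control library of its organ. *Tal1* rose 14.6-fold in intestine (log2 3.87 ± 0.35, edgeR adjusted p = 0.0029) and 30.2-fold in stomach (4.92 ± 0.35, adjusted p = 0.00054). Its relative *Lyl1*, which can stand in for *Tal1* in adult blood stem cells, had 2 and 2 counts in control intestine against 15 and 9 in KO intestine, a ratio of 5.37 (counting interval 1.85 to 21.3), and 1 and 1 counts in control stomach against 9 and 8 in KO stomach, a ratio of 8.5 (2.02 to 75.8). *Lyl1* also failed the filter, and its edgeR adjusted p without it was 0.15 and 0.073.

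*Gata2*, the zinc finger factor of blood stem cells, endothelium and some neurons, stood at 0.197 and 0.101 CPM in control intestine and at 1.37 and 1.83 in KO intestine. In stomach it stood at 1.22 and 1.53 CPM in the controls and at 8.74 and 13.3 in the KO libraries. The KO libraries were higher in both organs, and KO intestine reached about the level of control stomach. The rise was 10.3-fold in intestine (log2 3.36 ± 0.43, edgeR adjusted p = 0.0098) and 7.98-fold in stomach (3 ± 0.3, adjusted p = 0.002). The intestine call was lost without control library 1 (0.072) or control library 2 (0.082), and the stomach call was kept under each left-out library.

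**Figure D1:**
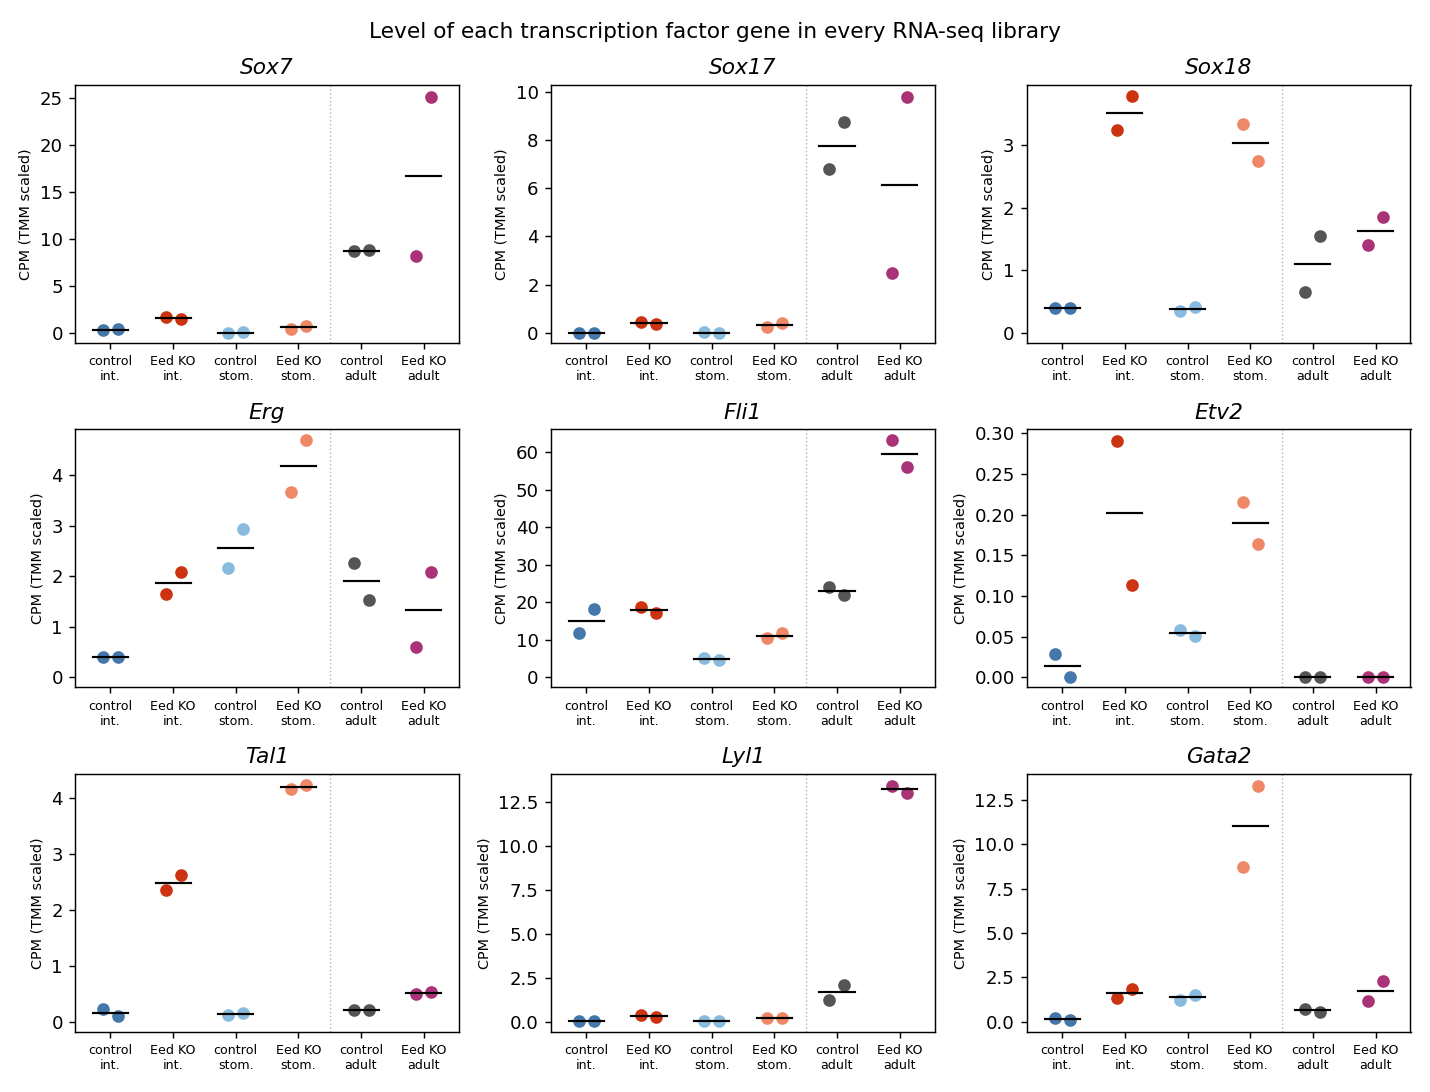
Level of each of the 9 genes in every RNA library, in CPM on a linear axis of its own for each gene, with a point for each library, a bar at the mean of each group of 2, and a dotted line between embryonic and adult libraries. *Tal1* and *Sox18* separate the embryonic *Eed* KO from the control libraries in both organs, while *Fli1* overlaps in intestine.

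Over the 9 genes, the 7 that passed the filter were called higher 5 times in KO intestine and 6 times in KO stomach, and none was called lower or had a negative value (calls need an edgeR adjusted p below 0.05 with a log2 change above 1). DESeq2 called 6 and 5 higher. Of all 16218 genes tested, 2.38% were called higher and 0.228% lower in KO intestine, and 4.84% higher and 0.808% lower in KO stomach. The median log2 fold change of the 7 was 3.13 in intestine and 3 in stomach, against 0.01 and 0 over all genes tested. *Sox17* and *Tal1* passed the filter through KO libraries alone, and *Sox7* had 1 control library over its limit, in intestine. These genes had to differ to be tested, and the counts are a description. *Gata2* was over its limit in control stomach but in neither control intestine library. Counting all 9 genes, the KO libraries lay above the control libraries for 8 in intestine and 9 in stomach, beside 21.8% and 27.7% of all genes tested. *Sox18* and *Tal1* kept their calls in both organs, and *Gata2* in stomach, under each left-out library. With 2 libraries against 2, an exact permutation test of a single gene cannot give a p below 0.333, so the calls rest on the spread that edgeR shares between genes.

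**Figure D2:**
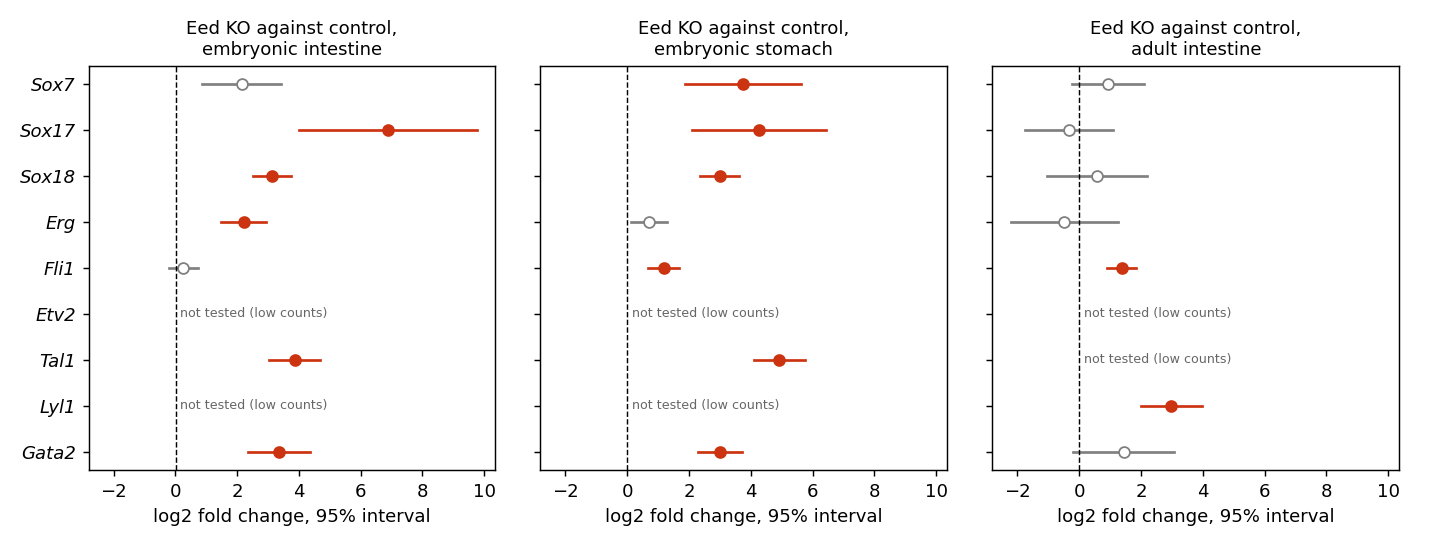
Log2 fold change of each tested gene between *Eed* KO and control libraries, with 95% intervals from the edgeR fit, for embryonic intestine, embryonic stomach and adult intestine, with filled red points for calls and open grey points for the rest; the *Sox17* point in intestine is a fitted value against controls with no count. Every tested gene except *Fli1* lies right of 0 with its whole interval in both embryonic organs, and *Fli1* and *Lyl1* do so in the adult.

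Co-factors and target genes of these proteins were read from lists. Of 31 tested regulators that act with or upstream of the 9 genes, 6 were called higher in KO intestine and 7 in KO stomach, and none lower, with medians of 0.36 and 0.46. The forkhead genes *Foxc1* and *Foxc2*, which act with ETS factors and upstream of Notch genes in vessels, had the largest changes of this list among called genes with a mean of at least 1 CPM, in intestine (log2 3.32 ± 0.34 and 2.96 ± 0.31, edgeR adjusted p = 0.0044 and 0.0047) and in stomach (3.71 ± 0.3 and 3.2 ± 0.27, adjusted p = 0.00087 and 0.00093). *Lmo2*, the bridge between TAL1 and GATA2, stood at 0.253 and 0.437 CPM in control and 1.98 and 1.94 in KO intestine, and at 0.493 and 0.637 in control and 2.01 and 1.54 in KO stomach. It rose in both organs (2.51 ± 0.35, adjusted p = 0.013, and 1.64 ± 0.33, adjusted p = 0.025). *Runx1*, needed for blood cells to leave endothelium, rose in stomach (2.29 ± 0.27, adjusted p = 0.0037) and did not pass in intestine (0.72 ± 0.25, adjusted p = 0.22). Of 5 tested genes linked to GATA2 and TAL1 in neurons, 1 was called higher in intestine and 3 in stomach, *Nkx6-1* among them (2.49 ± 0.27 in stomach, adjusted p = 0.004). Of 21 tested family relatives, 5 were called higher in intestine, and 3 higher and 1 lower in stomach. *Gata4*, a GATA factor of heart and gut, rose in both organs (3.69 ± 0.36 and 2.59 ± 0.3, adjusted p = 0.0034 and 0.003). *Gata3*, another relative, stood at 0.253 and 0.774 CPM in control and 3.51 and 4.59 in KO intestine (adjusted p = 0.11), and at 13 and 2.88 in control and 12.4 and 17.6 in KO stomach (adjusted p = 0.43).

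Endothelial surface and junction genes, many of them known targets of ERG, FLI1 and the SoxF proteins, moved in the same libraries. Of 20 tested, 9 were called higher in KO intestine and 11 in KO stomach, and none lower, with median log2 fold changes of 1.76 and 2.17. Their sum was 85.9 and 107 CPM in control intestine and 155 and 165 in KO intestine, and 67.1 and 70.3 CPM in control stomach and 98.8 and 139 in KO stomach. *Cdh5*, the endothelial cadherin, was at 1.43 and 1.82 CPM in control and 10.7 and 11.9 in KO intestine, and at 0.493 and 0.433 in control and 3.92 and 8.17 in KO stomach (log2 2.8 ± 0.35 and 3.7 ± 0.4, edgeR adjusted p = 0.0097 and 0.0025). *Pecam1* rose in stomach (2.77 ± 0.42, adjusted p = 0.0094) and just missed in intestine (1.71 ± 0.36, adjusted p = 0.051), while the receptor *Kdr*, which mesoderm also expresses, did not pass in either organ (1.12 ± 0.26 and 0.74 ± 0.26, adjusted p = 0.073 and 0.14). Of 6 lymphatic endothelial genes, none was called in intestine and 1 was called higher in stomach (medians 0.09 and 0.29). None of 9 epithelial genes was called by edgeR in either organ (medians 1 and 0.85), while DESeq2 called 3 higher in intestine and 2 in stomach. At an unadjusted p under 0.05, 5 of the epithelial genes were higher and 0 lower in each organ. Whether endothelial cells among the sorted cells had a part in the rise of the 9 genes was not tested.

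Blood cell markers were read in the same libraries. None of 10 tested erythroid genes was called in either organ by edgeR (medians -0.43 and -1.62). At an unadjusted p under 0.05 there was 1 lower in intestine, and 1 higher and 3 lower in stomach, where DESeq2 called 1 lower, and their sum was 69 to 83.5 CPM in control and 68.3 to 95.8 in KO intestine, and 51.1 to 66.7 in control and 40.6 to 65.6 in KO stomach. Of 6 tested macrophage and leukocyte genes, edgeR called none in intestine, where the list summed to 12.2 and 14.7 CPM in control and 10.8 and 9.92 in KO libraries, with 1 higher and 1 lower at an unadjusted p under 0.05 and none in DESeq2. In stomach it called 1 higher and 1 lower and DESeq2 called 3 higher and 1 lower. At an unadjusted p under 0.05 there were 5 higher and 1 lower in stomach. The median log2 fold change of the list was 0.51 in intestine and 1.67 in stomach. Its sum in stomach was 6.58 to 7.88 CPM in control and 7.02 to 10.6 in KO libraries. A large part of that sum was *Lyz2*, which fell from a mean of 5.59 to 2.65 CPM. None of 12 mesenchymal genes was called by edgeR in either organ, with 2 higher and 3 lower at an unadjusted p under 0.05 in intestine, 4 lower in stomach, and 1 higher in intestine by DESeq2. The part of blood cells in the values of the 9 genes was not tested.

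**Figure D3:**
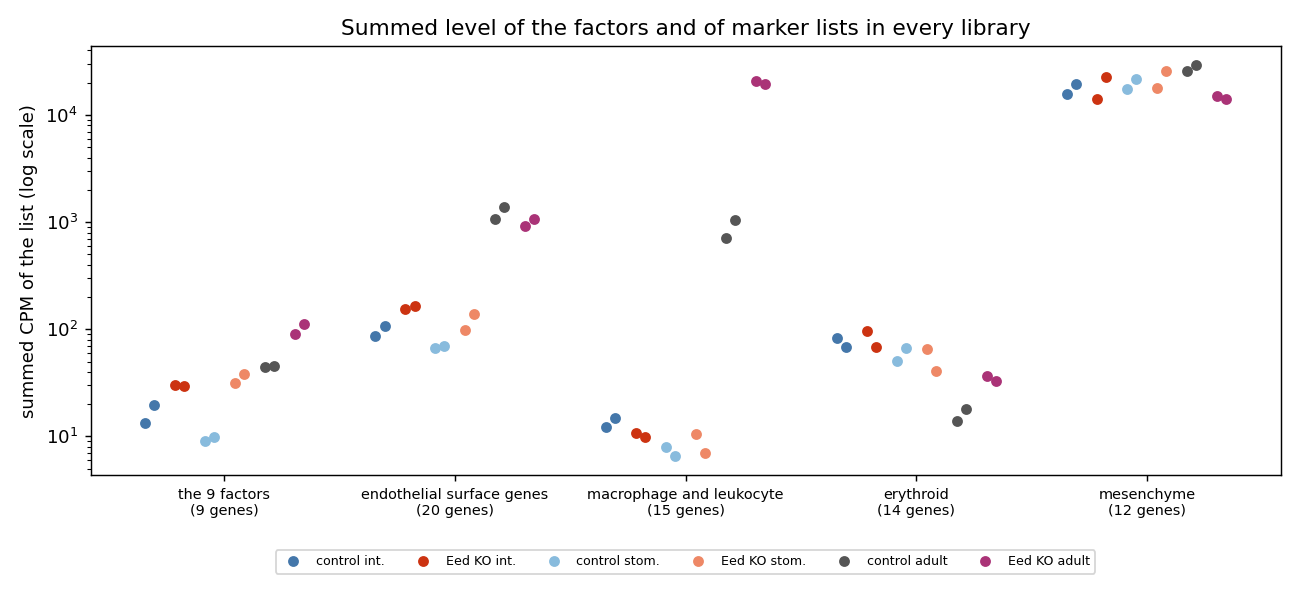
Summed CPM of the 9 genes and of the endothelial, macrophage and leukocyte, erythroid and mesenchymal lists in every RNA library, on a log axis. The sum of the 9 genes and the endothelial sum are higher in embryonic *Eed* KO than in control libraries, and the macrophage sum is far higher in the adult KO libraries.

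The 2 organs were next compared within each genotype, to see which of the genes mark an organ. In control embryos *Fli1* was 3.05-fold higher in intestine (log2 1.61 ± 0.22, edgeR adjusted p = 0.0052), and *Erg* and *Gata2* were 6.37-fold and 8.86-fold lower in intestine than in stomach (-2.67 ± 0.31 and -3.15 ± 0.44, adjusted p = 0.0025 and 0.0057). Of all genes tested, 1.68% were called higher and 3.39% lower in control intestine. *Sox7* was at 0.253 and 0.437 CPM in intestine and at 0 and 0.0765 in stomach, with no overlap, and missed the threshold (adjusted p = 0.1). The *Fli1* call was lost without control stomach library 2 (1.55, adjusted p = 0.053), and with spike-in scaling none of the 3 passed (adjusted p 0.17 to 0.62). In KO embryos *Gata2* was 6.88-fold lower in intestine (-2.78 ± 0.3, adjusted p = 0.0029) and *Erg* 2.25-fold lower (-1.17 ± 0.26, adjusted p = 0.04), beside 2.94% of all genes called lower and 1.46% higher. The *Erg* call was lost with any 1 of the 4 KO libraries left out (adjusted p 0.077 to 0.22). *Gata2* was higher in stomach in both genotypes, with each genotype's libraries separated by organ. Of the 20 endothelial surface and junction genes, 6 were called higher in control intestine and 1, *Esam*, lower (-1.55 ± 0.32, edgeR adjusted p = 0.028). *Cdh5* and *Pecam1* were both higher in control intestine (1.8 ± 0.42 and 2.51 ± 0.42, edgeR adjusted p = 0.047 and 0.013). Of 6 lymphatic endothelial genes, 1 was called higher in control intestine, *Prox1* (1.87 ± 0.25, edgeR adjusted p = 0.0052). In the other direction 3 were called lower, among them *Flt4* (-2.08 ± 0.42, adjusted p = 0.026) and *Reln* (-1.44 ± 0.17, adjusted p = 0.0027). The part of either cell type in these organ differences was not tested.

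The effect of *Eed* loss was then compared between the organs with an interaction term. None of the 7 tested genes was called at the study's thresholds for this contrast (edgeR adjusted p below 0.2, log2 difference above 1), beside 0.462% of all genes, and DESeq2 also called none. At an unadjusted p under 0.05 there were 2, *Erg* with a larger effect in intestine (difference 1.5 ± 0.4, adjusted p = 0.44) and *Fli1* with a larger effect in stomach (-0.92 ± 0.3, adjusted p = 0.59). *Erg* was called with no filter, with a spike-in factor in DESeq2 and with either replicate block (adjusted p 0.11 to 0.19). The interval of the difference ran from -2.35 to 0.25 for *Tal1*, from -0.76 to 1.04 for *Sox18* and from -0.87 to 1.6 for *Gata2*, so these data do not exclude differences of those sizes.

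Per length of transcript, in TPM (counts divided by exon length and scaled to 1000000 a library), the order of the genes changed with genotype. In control intestine *Fli1* led with 12.9 ± 4.24 TPM (mean ± SD, n = 2), followed by *Sox18* at 0.737 ± 0.0301, *Erg* at 0.344 ± 0.0141 and *Sox7* at 0.315 ± 0.125, where *Erg* and *Sox7* lay within their spread. In KO intestine *Fli1* at 15.6 ± 0.378 TPM and *Sox18* at 6.6 ± 0.964 stood above *Tal1* (1.73 ± 0.197), *Erg* (1.63 ± 0.335), *Gata2* (1.45 ± 0.343) and *Sox7* (1.41 ± 0.0856), which lay within each other's spread. In control stomach the order was *Fli1* (4.29 ± 0.299 TPM), *Erg* (2.24 ± 0.464), *Gata2* (1.25 ± 0.197) and *Sox18* (0.708 ± 0.0779). In KO stomach *Gata2* (10.6 ± 3.36 TPM) and *Fli1* (10.3 ± 1.09) could not be separated and stood above *Sox18* (5.99 ± 0.646), *Erg* (3.88 ± 0.774) and *Tal1* (3.07 ± 0.121). *Sox17* was the lowest of the 9 in every embryonic group, with 0.26 ± 0.0256 TPM in KO intestine and 0.22 ± 0.087 in KO stomach.

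Genes with the most similar profile over the 8 embryonic libraries were found by the root mean square difference of centred log2 CPM among 13385 genes with a mean of at least 1 CPM. For *Gata2* the closest was *Gata4* (0.442), followed by *Eya4* (0.485) and *Chrna4* (0.503), where the median over all genes was 2.07. For *Tal1* they were *Wdfy1* (0.332), *Prss16* (0.377) and *Gm14165* (0.434), with a median of 2.07. For *Sox18* they were *Cbr3* (0.247), *Rgl3* (0.32) and *Pou3f4* (0.329), with a median of 1.48. For *Erg* they were *Aim1* (0.21), *Fgf14* (0.21) and *Faah* (0.238), and for *Fli1* they were *Sh3tc1* (0.189), *Igsf11* (0.202) and *Rnf165* (0.205), with medians of 1.23 and 0.754. Of the 9 genes only *Sox18*, *Erg*, *Fli1*, *Tal1* and *Gata2* reached that mean and could be found as neighbours. None of them was among the nearest genes. Likeness here describes 4 groups of 2 libraries and carries no test.

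In adult intestinal stroma the picture was different. *Lyl1* stood at 1.24 and 2.1 CPM in the control and at 13.4 and 13 in the KO libraries, and *Fli1* at 24 and 21.9 CPM in the control and 63.2 and 56.2 in the KO libraries. Both were clear of overlap. *Lyl1* rose 7.87-fold (log2 2.98 ± 0.41, edgeR adjusted p = 0.0031) and *Fli1* 2.6-fold (1.38 ± 0.2, adjusted p = 0.0037), and both calls were kept under each left-out library, with *Fli1* at an adjusted p of 0.22 under spike-in scaling. They were the 2 called of 7 tested genes, with a median of 0.93 against 0 over all genes, beside 12.3% of all 15039 genes tested called higher and 7.23% lower.

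The other genes were not called in the adult. *Gata2* stood at 0.73 and 0.559 CPM in the control and at 1.2 and 2.31 in the KO libraries without overlap (log2 1.45 ± 0.69, edgeR adjusted p = 0.18). *Sox7* at 8.69 and 8.81 CPM in the control libraries lay between the KO libraries at 8.21 and 25.1, and became called without KO library 1 (1.49, adjusted p = 0.014). *Sox17* at 6.79 and 8.74 CPM in the control and 2.5 and 9.8 in the KO libraries also overlapped, as did *Sox18* (0.657 and 1.54 against 1.4 and 1.85) and *Erg* (2.26 and 1.54 against 0.601 and 2.08). *Tal1* had 3 and 3 counts in the control and 5 and 7 in the KO libraries, a ratio of 2.44 (counting interval 0.848 to 7.92), and *Etv2* had 0 counts in all 4 libraries. Counting all 9, the KO libraries lay above the controls for 4 genes, where 32.3% of all genes tested did so. Adult control libraries held more *Sox7* and *Sox17* than any embryonic library, but age, Cre driver, kit and strand differ together between the sets and cannot be told apart.

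Leukocyte genes moved with the adult rise of *Lyl1* and *Fli1*. Of 15 tested macrophage and leukocyte genes, 12 were called higher and 1 lower (median log2 fold change 4.13), and the list summed to 717 and 1040 CPM in the control and 20800 and 19400 in the KO libraries. *Ptprc* stood at 64.2 and 57.1 CPM in the control and at 1080 and 923 in the KO libraries (4.04 ± 0.22, edgeR adjusted p = 0.00012). *Spi1*, the myeloid ETS factor, and *Lmo2* rose too (5.16 ± 0.44 and 3 ± 0.45, adjusted p = 0.00042 and 0.0043), among 10 of 25 tested partner and upstream regulators called higher. Mesenchymal genes fell, with 5 of 10 called lower, among them *Tcf21* (-2.23 ± 0.25, adjusted p = 0.0013) and *Pdgfra* (-1.79 ± 0.22, adjusted p = 0.0018). Of 19 endothelial genes 3 were called higher and none lower. These were *Cldn5* (2.61 ± 0.62, edgeR adjusted p = 0.024), *S1pr1* (1.53 ± 0.35, adjusted p = 0.021) and *Pecam1* (1.43 ± 0.21, adjusted p = 0.0041). Leukocytes and platelets also carry *Pecam1*, and *Cdh5* did not pass (0.52 ± 0.39, adjusted p = 0.38). The endothelial list summed to 1080 and 1390 CPM in the control and 914 and 1070 in the KO libraries. Of 6 lymphatic endothelial genes 3 were called higher and 1 lower, and the list summed to 303 and 274 CPM in the control and 890 and 625 in the KO libraries. *Flt4*, the lymphatic growth factor receptor, and *Lyve1*, a hyaluronan receptor that some macrophages share, were 2 of the 3 (3.18 ± 0.75 and 2.79 ± 0.49, adjusted p = 0.024 and 0.0079), beside *Ccl21a* (3.65 ± 0.29, adjusted p = 0.00032), whose reads may be shared with near-identical copies. The part of leukocytes, endothelial cells and lymphatic cells in the *Lyl1* and *Fli1* values was not tested.

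Chromatin at the 9 genes was read from ATAC-seq, which cuts and tags open DNA, in embryonic intestine and stomach of both genotypes. The authors called 1 list of broad peaks a group from pooled replicates, so no spread between replicates can be given for a peak. A peak within 1000 bp of the first start site was found for 8 of the 9 genes in control intestine and control stomach and for all 9 in both KO lists, beside 88%, 88.4%, 89.1% and 89.1% of all genes tested in control intestine, control stomach, KO intestine and KO stomach. The exception was *Lyl1*, whose nearest peak in both control lists lay upstream, further than 1000 bp from the start. The promoters of *Sox7*, *Sox17*, *Sox18*, *Erg*, *Etv2*, *Tal1*, *Gata2* and *Fli1* lay within that distance of a peak in control mesenchyme, where *Sox17* had no count in the intestine and 1 in the stomach.

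Peak strength was low for most of the 9 genes. The fold enrichment over background that the peak caller gave was 2.27 to 2.48 for *Gata2* over the 4 lists, 2.75 to 3 for *Sox17*, 2.92 to 3.42 for *Tal1* and 3.02 to 3.35 for *Sox7*, where the median over genes with a promoter peak was 6.46 to 6.91. *Gata2* lay under the first percentile in each list and *Erg*, the strongest, at 4.85 to 6, between the percentiles 24.5 and 42.9. Fold enrichment was higher in the KO list for *Erg* in intestine and for *Sox18* in stomach. It was 2.41 in both stomach lists for *Gata2*, and lower in the KO list in all other cases with a peak in both lists. *Tal1* had 3.42 in control and 2.92 in KO intestine, and 3.14 in control and 3.1 in KO stomach, and *Sox18* had 3.79 and 3.67 in intestine and 3.89 and 4.36 in stomach. For the 8 genes with a peak in both lists, the log2 ratio of KO to control fold enrichment ran from -0.363 to 0.14 in intestine and from -0.194 to 0.168 in stomach, where the median over all genes was -0.0705 and -0.0142.

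The place and width of the peaks differed in detail. *Lyl1* (chr8:84701457-84704715, mm10, plus strand) had a narrow peak in the KO lists only, from 257 to 448 bp past its start in intestine (chr8:84701714-84701905, fold enrichment 2.3, −log10 q 2.96) and from 279 to 428 bp in stomach (chr8:84701736-84701885, 2.7, −log10 q 7.51), downstream of the promoter sequence given above. A stronger *Lyl1* peak lay upstream in all 4 lists, outside the 1000 bp window, at -1600 to -1282 bp from the start in control intestine. Its fold enrichment was 3.9 and 4.2 in control intestine and stomach, and 4.6 and 4.9 in KO intestine and stomach. At *Tal1* (chr4:115056426-115071755, plus strand) the peak began 41 and 10 bp past the first start in control intestine and stomach, and 17 and 22 bp before it in the KO lists, so the peak reached into the printed promoter in KO lists only. At *Gata2* (chr6:88193891-88207030, plus strand) it reached 158 and 380 bp upstream in the control lists and 354 and 488 bp in the KO lists. The promoter peak was wider in KO for 6 of 8 genes in intestine and 8 of 8 in stomach, beside 63.7% and 68.2% of all genes with both peaks. The control and KO lists held 103808 and 119181 peaks in intestine and 115789 and 116842 in stomach. The part of such differences between lists in the peak edges and in the narrow *Lyl1* peak was not tested. At *Etv2* (chr7:30633616-30635852, minus strand) the peak lay inside the gene, 758 to 2090 bp past the start over the 4 lists, and that of *Fli1* (chr9:32422204-32542861, minus strand) began 146 to 247 bp past the start used in the counts, while a later GENCODE annotation places the start at position 32541595, inside that peak.

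Within the loci of the 9 genes, taken as the gene with 10000 bp on either side, there were 57 and 63 peaks in control intestine and stomach and 61 and 67 in the KO lists. Of the 61 in KO intestine, 4 were shared with KO stomach and met no peak of either control list, which is near the 5.97% of all KO intestine peaks that do so. They lay at *Lyl1*, at *Sox7* 7284 to 7152 bp upstream (chr14:63936390-63936522), at *Fli1* 2675 to 1394 bp upstream (chr9:32544255-32545536) and at *Erg* 214003 to 214683 bp past the start (chr16:95371910-95372590). In the other direction, 2 of the 57 control intestine peaks, at *Erg* and *Fli1*, were shared by both control lists alone, beside 3.53% of all peaks.

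**Figure D4:**
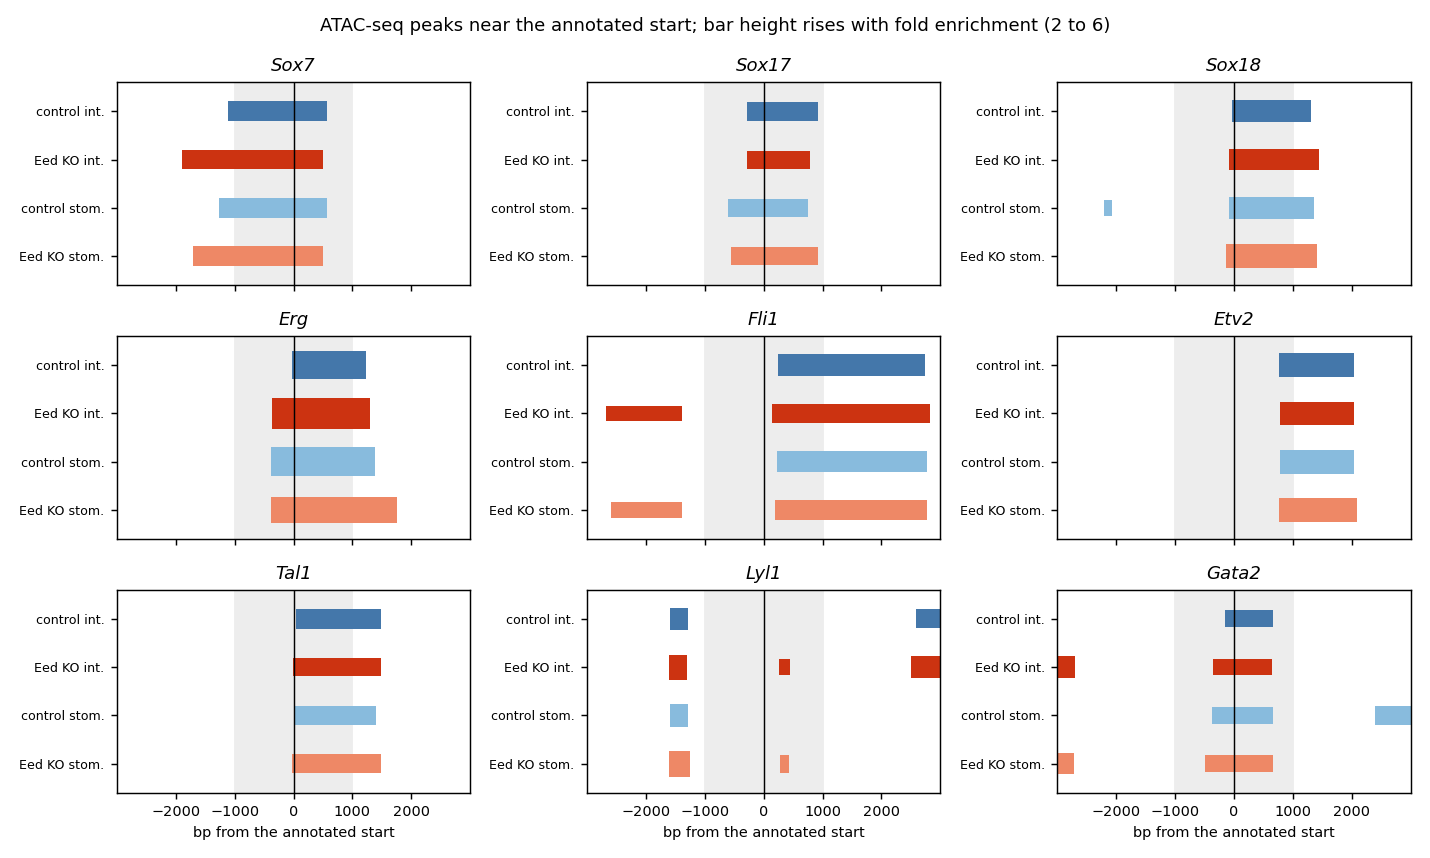
Promoter peaks of the 9 genes in the 4 ATAC-seq lists, drawn by distance in bp from the first start site, where a taller bar is a higher fold enrichment, colour is the group and the grey band spans 1000 bp on either side. Inside the band *Lyl1* has a peak in the *Eed* KO lists only, and the *Tal1* peak crosses the start in those lists.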

How the data were processed

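RNA-seq and ATAC-seq files were used as deposited. Per the labels and methods, embryonic reads were trimmed (Trimmomatic 0.32), aligned to mm10 with STAR 2.5.1b and counted per gene with featureCounts, embryonic libraries by strand and adult ones without, so adult *Sox17* reads cannot be told from those of RP23-285G23.2 on the other strand, which shares 804 exon bases. The version of featureCounts differs between the sources. The deposited values are raw counts per gene and library, with spike-in transcripts, which were left out of library sizes. ATAC-seq peaks were called by the authors with MACS2 2.1.2 on pooled replicates after alignment with BWA 0.7.8, and the deposited lists give a fold enrichment (a ratio to local background), a signal height score, −log10 p-value and −log10 q-value for each peak.

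Counts were tested with edgeR 4.0.16 in R 4.3.3 (TMM scaling, filterByExpr, quasi-likelihood F-test, Benjamini-Hochberg over all genes tested), the 8 embryonic libraries in one fit and the 4 adult libraries in another. Genes were called at an adjusted p under 0.05 and an absolute log2 fold change over 1. CPM used TMM library sizes. Counting intervals are exact conditional 95% intervals and, like the floor of 3 counts, cover counting error only. On simulated counts with 200 changed genes, changes of 4-fold or more were recovered for 84.2% in the embryonic intestine comparison (16218 genes) and 79.2% in the adult one (15039 genes), and changes of 2-fold for 33.8% and 10%, with 4 and 32 false calls. In the embryonic stomach comparison (16218 genes) these were 90.8% and 32.5%, with 4 false calls. Alternatives were no filter, DESeq2 1.42.0 with and without a spike-in factor, spike-in scaling, fits of the groups compared only, replicate blocks and leaving out each library. Genes of other lists are named where called, at most 3 a list and comparison by size of change and a mean CPM of 1 or more, and *Lmo2*, *Pecam1*, *Cdh5*, *Kdr*, *Ptprc*, *Runx1* and *Gata3* always. The 9 genes and the lists were chosen with earlier results of these data known. A promoter peak is one within 1000 bp of the first annotated start.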

Additional observations from a re-analysis of the deposited data

How the results depend on the processing

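Of the single-gene results under the alternatives, 387 kept their direction and side of the threshold, 35 lost a call, 15 gained one and 11 changed sign. In KO intestine the number of genes called (5) was 3 in DESeq2 with 1 spike-in factor, where *Erg* had an adjusted p of 0.06 and *Sox17* had none, and 2 to 4 with 1 library left out. In KO stomach (6) it was 4 in DESeq2 with the spike-in factor, 4 with only the groups compared, and 3 to 5 with 1 library left out. Between control organs (3) it was 0 under spike-in scaling and 2 to 3 with 1 library left out. Between KO organs (2) it was 1 under spike-in scaling, 1 with only the groups compared and 1 under each left-out library. For the organ difference in the effect (0), *Erg* was the 1 gene called with no filter, with the spike-in factor, with the replicate block and with the block shared by organs of a genotype. In the adult (2) it was 1 under spike-in scaling, and 2 to 3 with 1 library left out. With −log10 q of at least 5, promoter peaks remained for 5 genes in KO intestine (of 9) and 5 in control stomach (of 8).

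Spike-in scaling moved the median of all genes by 1.85 in KO intestine, 2.39 in KO stomach, 0.3 and -0.24 between control and KO organs, -0.53 in the interaction and -0.42 in the adult. All changes above are relative to the median. Relative to these shifts *Fli1* in KO intestine was 0.27 and *Erg* in KO stomach 0.76. Spike-in reads were 0.072% to 0.11% of gene counts in embryonic controls and 0.0134% to 0.0403% in KO libraries, and the cause was not tested. The sign of the log2 fold change turned for *Fli1* in KO intestine (-0.03 to 0.61) without control library 1, between control organs for *Tal1* (-0.4 to 0.72) without control intestine library 1 and for *Sox17* (-3.19 to 0) and *Sox18* (-0.03 to 0.2) without control stomach library 1, between KO organs for *Sox17* under spike-in scaling (-0.09) and without KO stomach library 1 (0), in the interaction under spike-in scaling for *Sox18* (-0.28) and *Gata2* (-0.24), and in the adult for *Sox17* (-1.64 to 0.31) and *Erg* (-1.65 to 0.11) without KO library 1 and *Sox7* (-0.1 to 1.49) without KO library 2, where ranges span the left-out libraries. None of these was called in the main analysis.

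The labels do not say that replicate numbers pair libraries. Deviations of same-numbered libraries correlated at 0.099 between genotypes in intestine, 0.047 in stomach and -0.06 in the adult, and at 0.628 between KO organs, where same-numbered libraries also share their sex, and 0.265 between control organs. With the replicate block *Sox7* in KO intestine was also called (2.2, edgeR adjusted p = 0.046), and *Sox7* between organs with the block shared by organs (3.05 in controls, adjusted p = 0.049, and 1.41 in KO, 0.047). Depth limits *Etv2*, *Lyl1* and *Sox17*, which rest on under 20 counts in each embryonic library.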
